A study of Mus musculus with 16 samples.

Results

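The pantetheinase genes Vnn1 and Vnn3 were followed across liver arrays of vanin-1 knockout and wild type mice in the fasted and the fed state. They were chosen by name, and each had 1 probe set with a single gene symbol (10362138 for Vnn1 and 10362129 for Vnn3), so they stood for 2 of 18820 genes measured this way. The 16 arrays formed 4 groups of 4: knockout mice fasted for 24 h (fasted KO), wild type mice fasted for 24 h (fasted WT), knockout mice fed normally (fed KO) and wild type mice fed normally (fed WT). All animals were males of 14 to 16 weeks on the C57Bl/6J background, housed singly on chow. Both WT groups carried intact Vnn1, and both KO groups carried a null allele whose extent, affected cell types and origin the labels do not state. The labels do not say that each array came from its own animal, so p-values cover only the spread among the samples, which may be technical. Levels are log2 RMA intensities, a scale on which 1 unit is a doubling, and arrays are named by group and number.

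Pantetheinases split pantetheine, a breakdown product of coenzyme A, into pantothenate (vitamin B5) and cysteamine. Pantothenate can be used again for coenzyme A synthesis, and cysteamine can be oxidised to hypotaurine and taurine. Vnn1 encodes vanin-1, a pantetheinase held at the cell surface by a lipid anchor, and in liver Vnn1 is a known target of PPARα, the fatty acid receptor that drives the hepatic fasting programme. Vnn3 encodes the other mouse vanin. In the RefSeq gene order (assembly GRCm38.p6) the 2 genes lie side by side on chromosome 10 with 0 annotated genes between them.

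Because the fasting response of Vnn3 is described below, the RefSeq promoter sequence of 1 of the 2 genes, Vnn3, is shown for the 250 bases before its annotated start (GRCm38.p6, chr10:23851212-23851461, plus strand), with the match to TTGCNNAA in capitals.
Vnn3: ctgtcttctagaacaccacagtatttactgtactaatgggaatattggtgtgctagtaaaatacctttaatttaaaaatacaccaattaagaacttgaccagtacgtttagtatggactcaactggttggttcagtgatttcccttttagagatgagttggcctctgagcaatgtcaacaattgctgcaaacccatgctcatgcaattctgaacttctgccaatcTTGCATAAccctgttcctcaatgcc
TTGCNNAA, a pattern bound by C/EBP factors, was searched on both strands and was present once, starting at position -25 from the annotated start. The same pattern stood in 9.6% of 32851 RefSeq promoter windows of this length. The PPAR-RXR half-site AGGTCA was matched 0 times in the Vnn3 window and stood in 14.0% of windows. A direct repeat of AGGNCA with 1 base between the copies was also matched 0 times there and stood in 0.3% of windows. The TATA pattern TATAAA had 0 matches and stood in 12.4% of windows. These motifs were chosen with the data in view, TTGCNNAA after the Vnn3 sequence had been seen, and a match or its absence says nothing of binding.

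Vnn1 was high in WT liver in both feeding states and near the low end of the arrays in KO liver. The 4 fasted KO arrays read 4.26, 4.22, 3.67 and 3.77, against 11.47, 11.24, 9.93 and 10.60 on the fasted WT arrays. In the fed state the KO arrays read 3.85, 3.84, 3.80 and 4.06, against 10.34, 8.74, 9.85 and 6.71 on the WT arrays. Every KO array lay below every WT array, so the targeted gene matched the genotype on each label.

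**Figure D1:**
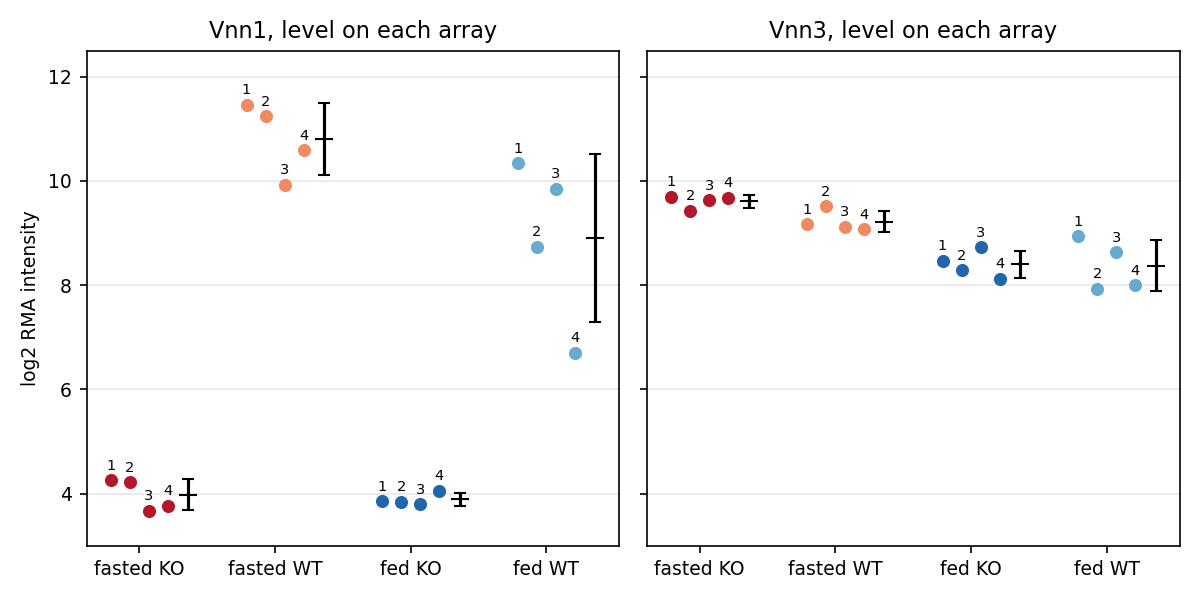
Level of Vnn1 (left) and Vnn3 (right) on every array, in log2 RMA intensity, with array numbers beside the points and the group mean ± SD (n = 4) as a bar at the right of each group. Vnn1 splits by genotype, with the widest spread among fed WT arrays (6.71 to 10.34), while Vnn3 splits by feeding state and lies between 7.93 and 9.70 throughout.

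Vnn1 averaged 3.98 ± 0.30 in fasted KO liver and 10.81 ± 0.69 in fasted WT liver (SD, n = 4 each). KO was lower by an estimated factor of 114 (log2 difference -6.83 with SE 0.54, 95% interval -7.97 to -5.69, adjusted p = 1.05e-05 by limma). In the fed state Vnn1 averaged 3.89 ± 0.12 in KO liver and 8.91 ± 1.61 in WT liver (SD, n = 4 each). The estimated factor was 32.5 (log2 difference -5.02 with SE 0.54, 95% interval -6.16 to -3.88, adjusted p = 9.61e-04 by limma). In both comparisons Vnn1 had the smallest p and the largest difference of all genes tested. The folds are point estimates, and any probe background in the KO signal would make them too small. Of 18820 genes, 0.0159% were called (Benjamini-Hochberg adjusted p below 0.05) between fasted KO and fasted WT, namely Vnn1 as the lower and Ctse and Cpne5 as the higher ones (0.00531% and 0.0106%), and 0.00531% between fed KO and fed WT, which was Vnn1 alone. The fed call ended when the fit held only the fed arrays (adjusted p = 0.163) and when the 3 arrays whose name ends in 2 were left out (0.0759). Groups that do not overlap, as for Vnn1 in both states, were lower in 1.5% of genes in fasted and 1.84% in fed KO liver.

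The KO signal of Vnn1 was set against 990 olfactory receptor genes, which were assumed, without a test, to be mostly silent in liver. Their median level was 2.91 to 2.97 and their 95th percentile 4.13 to 4.20 on the fasted KO arrays. Vnn1 lay above 86.4% to 96.0% of them on the fasted KO arrays and above 88.6% to 93.5% on the fed KO arrays. It thus stood in the upper part of what these receptor genes show, some of which may be expressed. Whether residual transcript or probe background gives this signal was not tested. On all 8 WT arrays Vnn1 lay above every one of the 990 genes, as did Vnn3 on all 16 arrays.

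Fasting went with more Vnn1 in WT liver, but the groups touched. The mean was 10.81 ± 0.69 in fasted WT and 8.91 ± 1.61 in fed WT liver (SD, n = 4 each), 3.73-fold higher (log2 difference 1.90, 95% interval 0.76 to 3.04, limma adjusted p = 0.0397). In this comparison 7.61% of all genes were called, 629 higher (3.34%) and 803 lower (4.27%), a split that turned to 1014 and 542 when each array was centred on its median over genes. By size the rise ranked 45 of 18820. The array fed WT 1, at 10.34, lay above fasted WT 3, at 9.93, and an exact permutation test of the 8 arrays gave two-sided p = 0.0571, where the smallest possible value is 0.0286. The call ended under 16 of 31 other settings (adjusted p up to 0.158), 10 of which dropped a single array. Of the WT arrays these were numbers 1, 2 and 4 of the fasted and 2 and 4 of the fed group, and of the KO arrays 1 and 4 of the fasted and 1, 2 and 3 of the fed group. When fed WT 4 was dropped the log2 rise came to 1.17 (adjusted p = 0.062). The 16-array interval of 0.76 to 3.04 also draws on the narrow KO spread (SD 0.30 fasted and 0.12 fed). Fitted on the WT arrays alone the interval was 0.40 to 3.40 (limma adjusted p = 0.158).

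The array names carry a number, 5 or 7, and each group had 2 arrays of either. Among arrays of number 5, fasted WT averaged 10.70 and fed WT 10.09 for Vnn1, a log2 difference of 0.60. Among arrays of number 7 they averaged 10.92 and 7.72, a difference of 3.20. The number thus split the fed WT arrays, with 1 and 3 high and 2 and 4 low, and the labels do not say what it stands for. In the fed state the Vnn1 difference between KO and WT was -6.27 among arrays of number 5 and -3.77 among those of number 7, and in the fasted state -6.73 and -6.93. With the number as a block the limma adjusted p of the Vnn1 rise on fasting in WT liver was 0.037. That of the KO against WT difference was 0.00113 in the fed and 1.5e-05 in the fasted state. Such a block fits 1 difference for both numbers, so it does not test the split between them.

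In KO liver Vnn1 showed no call on fasting. The log2 difference was 0.09 with a 95% interval of -1.05 to 1.23 (limma adjusted p = 0.949), an interval that carries the wide spread of the WT groups. Fitted on the KO arrays alone it was -0.21 to 0.39 (adjusted p = 0.751). The fasting response of Vnn1 in KO minus that in WT liver was -1.81 (SE 0.76, unadjusted p = 0.0298, limma adjusted p = 0.948), and 0 genes were called for this difference, with 4.91% at an unadjusted p under 0.05. In order of level, fasted WT stood first, then fed WT, fasted KO and fed KO, and the last pair did not differ beyond their spread.

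**Figure D2:**
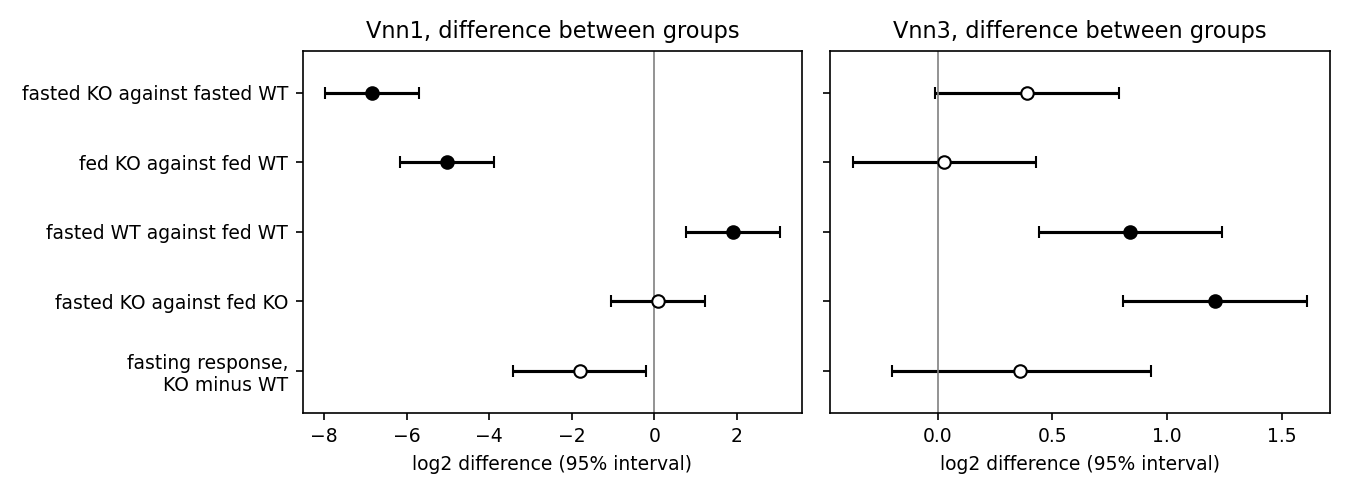
Log2 difference of Vnn1 (left) and Vnn3 (right) in 5 comparisons, with 95% intervals from limma on all 16 arrays. Filled points have an adjusted p below 0.05: Vnn1 in both genotype comparisons and in fasted against fed WT, and Vnn3 in both fasting comparisons. The horizontal scales differ between the panels.

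Vnn3 followed the feeding state in both genotypes. The arrays read 9.70, 9.43, 9.63 and 9.68 in fasted KO, 9.17, 9.51, 9.12 and 9.07 in fasted WT, 8.47, 8.28, 8.73 and 8.12 in fed KO, and 8.94, 7.93, 8.63 and 7.99 in fed WT liver. Every fasted array lay above every fed array. Groups that do not overlap, with fasted higher, were found in 6.02% of all genes in WT and 8.89% in KO liver.

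In KO liver, where Vnn1 is lost, Vnn3 averaged 9.61 ± 0.12 in the fasted and 8.40 ± 0.26 in the fed state (SD, n = 4 each), 2.31-fold higher (log2 difference 1.21, 95% interval 0.81 to 1.61, limma adjusted p = 5.98e-04). In WT liver it averaged 9.22 ± 0.20 in the fasted and 8.37 ± 0.49 in the fed state (SD, n = 4 each), 1.79-fold higher (log2 difference 0.84, 95% interval 0.44 to 1.24, limma adjusted p = 0.0109). In KO fasting 9.42% of genes were called, 4.53% higher and 4.89% lower. The WT value was uneven over the array-name numbers, at 0.36 among arrays of number 5 and 1.33 among those of number 7, while the KO values were 1.07 and 1.35. The WT call ended in 1 of 31 other settings, the fit on the WT arrays alone (adjusted p = 0.0565), and the KO call held in all 31. The exact permutation test gave two-sided p = 0.0286 in either genotype, the smallest value possible, and 0.0572 when adjusted over the 8 comparisons of the 2 genes.

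The question whether loss of Vnn1 goes with more Vnn3 was addressed by the genotype comparisons. In the fasted state Vnn3 averaged 9.61 ± 0.12 in KO and 9.22 ± 0.20 in WT liver (SD, n = 4 each), a log2 difference of 0.39 with a 95% interval of -0.01 to 0.79, or 0.993-fold to 1.73-fold (unadjusted p = 0.0553, limma adjusted p = 0.894). The groups overlapped through fasted WT 2, at 9.51, and fasted KO 2, at 9.43. At an unadjusted p under 0.05 there were 5.49% of genes in this comparison. Fitted on the fasted arrays alone the interval was 0.15 to 0.63 (unadjusted p = 0.00499, limma adjusted p = 0.825). With the array-name number as a block it was 0.04 to 0.74 (limma adjusted p = 0.864). With the replicate number of the sample title as a block it was 0.02 to 0.76 (limma adjusted p = 0.895). In the fed state the difference was 0.03, with an interval of -0.37 to 0.43, or 0.772-fold to 1.35-fold (limma adjusted p = 0.986), and its sign changed under 5 of 31 settings. Between arrays of numbers 5 and 7 it was 0.52 and 0.26 in the fasted and -0.19 and 0.24 in the fed state. Over both feeding states it was 0.21 (interval -0.07 to 0.49, limma adjusted p = 0.85). The fasting response of Vnn3 in KO minus that in WT liver was 0.36 (interval -0.20 to 0.93, limma adjusted p = 0.948). In order of level came fasted KO, fasted WT, fed KO and fed WT. Neither pair of the same feeding state passed the test, and the lowest fasted WT array (9.07) lay above the highest fed KO array (8.73).

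Among fed WT livers Vnn1 was one of the most uneven transcripts. Its range there was 3.63 on the log2 scale, or 12.4-fold, and its SD of 1.61 compares with a median SD of 0.136 over all genes. Only 6 genes had a larger SD among the fed WT arrays. They were Tff3, which encodes a mucosal secreted peptide, Moxd1, the lipid transporter gene Mfsd2a, the lipid droplet gene Fitm1, the fatty acid hydroxylase gene Cyp4a14 and the asparagine synthetase gene Asns. These were named after their values were seen. The SD of Vnn3 in the same arrays was 0.49, exceeded by 387 genes.

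A list of PPARα target genes, 39 of 46 measured and not including Vnn1 or Vnn3, was averaged on each array. The mean log2 level lay between 10.78 and 11.03 on fasted KO, 10.34 and 10.71 on fasted WT, 9.07 and 9.67 on fed KO, and 8.85 and 9.89 on fed WT arrays. On fed WT arrays 1, 3, 2 and 4 it stood at 9.89, 9.62, 9.30 and 8.85, the same order in which Vnn1 stood at 10.34, 9.85, 8.74 and 6.71. Cyp4a14 kept that order too, at 12.26, 11.29, 10.11 and 8.26. Of the 39 genes, 16 (41.0%) ranked these arrays as Vnn1 did, beside 4.69% of all other genes. On the fasted WT arrays 1 of 39 did so, beside 6.37% of all other genes. Over the array-name numbers the target mean was 9.76 and 9.07 in fed WT liver for numbers 5 and 7, and 9.42 and 9.37 in fed KO liver.

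**Figure D3:**
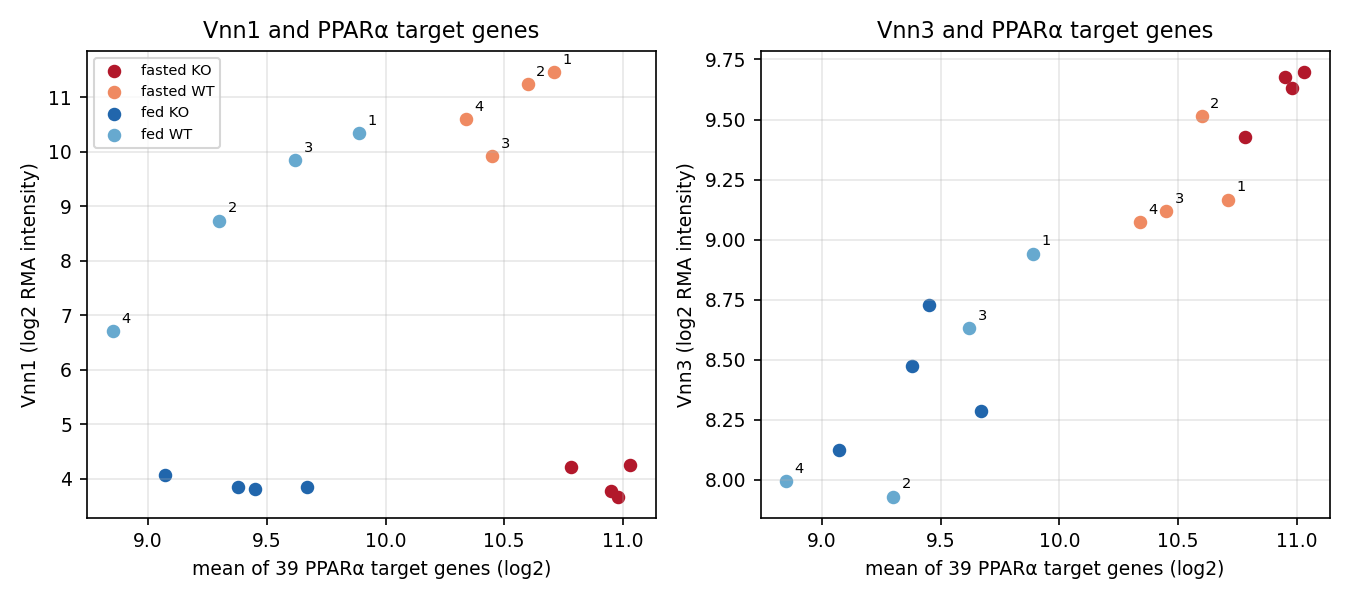
Level of Vnn1 (left) and Vnn3 (right) against the mean log2 level of 39 PPARα target genes on each of 16 arrays, with WT arrays numbered. Vnn1 climbs along the WT arrays and stays at 3.67 to 4.26 on the KO arrays, and Vnn3 climbs over all 4 groups.

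As a description over arrays that share the feeding contrast, the Pearson correlation with this mean was 0.920 for Vnn1 over the 8 WT arrays (Spearman 0.929), and 0.955 after each group's own mean was taken out. For Vnn3 it was 0.938 over the WT arrays and 0.968 over the 8 KO arrays, and 0.835 and 0.493 after group means were taken out. The Vnn1 value without group means draws mostly on the fed WT arrays, where the SD of Vnn1 was 1.61, against 0.69 in fasted WT. Fasting raised 34 of the 39 target genes in KO liver, beside 4.53% of all genes, with a median log2 difference of 1.09 against 0.02. In WT liver it raised 32 of 39, beside 3.34% of all genes, with a median of 0.74 against 0.01. Between fasted KO and fasted WT 0 of the 39 were called by limma, where 0.0159% of all genes were. However, 16 of the 39 had an unadjusted p under 0.05, beside 5.49% of all genes. The median of the 39 was 0.26 against 0 over all genes. The target mean was higher on every fasted KO array than on any fasted WT array, beside the uncalled Vnn3 difference of 0.39, and its part in that difference was not tested. Ppara itself, the receptor gene, averaged 11.13 ± 0.12 in fasted KO, 10.99 ± 0.28 in fasted WT, 10.89 ± 0.30 in fed KO and 10.92 ± 0.31 in fed WT liver, with no call on fasting in KO (adjusted p = 0.441) or WT (0.863) by limma.

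The genes whose pattern was most like each pantetheinase were taken by Pearson correlation among 9510 genes with a level above the median. For Vnn1 over the 8 WT arrays these were Tmem189 (0.983), which encodes an ether lipid desaturase, the hyaluronidase gene Hyal2 (0.980), Serinc2 (0.970), the fatty aldehyde dehydrogenase gene Aldh3a2 (0.969) and the lipase gene Ddhd2 (0.968). After group means were taken out their values lay between 0.957 and 0.970, again over Vnn1 deviations that were widest in fed WT. Serinc2 read 9.74, 9.50, 8.51 and 9.19 on fasted WT arrays and 8.76, 7.50, 8.29 and 6.91 on fed WT arrays, ranking all 8 as Vnn1 did. Its KO arrays averaged 9.99 ± 0.37 in the fasted and 8.55 ± 0.15 in the fed state (SD, n = 4 each). Vnn3 ranked 139 in likeness to Vnn1 (0.880, and 0.777 without group means).

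For Vnn3 over all 16 arrays the most alike were Acot4 (0.971), a peroxisomal acyl-CoA thioesterase gene, Hadha (0.966), which encodes a subunit of the mitochondrial trifunctional protein, Acaa1b (0.960), a peroxisomal thiolase gene, the peroxisome assembly gene Pex19 (0.957) and the RNA-binding protein gene Khdrbs3 (0.956). Without group means these fell between 0.769 and 0.890. Acot4 averaged 10.93 ± 0.38 in fasted KO, 10.27 ± 0.50 in fasted WT, 8.75 ± 0.45 in fed KO and 8.84 ± 0.80 in fed WT liver, the same split by feeding state. Acot4, Hadha and Acaa1b stand in the PPARα list, as does Aldh3a2.

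Genes that make, break down and use pantetheine were read beside the enzymes themselves. Of 12 genes for pantothenate uptake and coenzyme A synthesis, 3 rose on fasting in KO liver, where 4.53% of all genes did, and 9 did not pass the test (median 0.11). At an unadjusted p under 0.05 there were 6 of 12, but the share of all genes at that limit was not counted for fasting. The risen genes were Dcakd (1.76-fold, limma adjusted p = 2.77e-04), named for a dephospho-CoA kinase domain, Slc25a42 (1.54-fold, adjusted p = 0.0141), a mitochondrial coenzyme A carrier, and Ppcs (1.45-fold, adjusted p = 0.0132), which joins phosphopantothenate to cysteine. In WT liver Dcakd rose (1.35-fold, adjusted p = 0.0334), the vitamin transporter gene Slc5a6 fell by 0.52 on the log2 scale (adjusted p = 0.042), and 10 of 12 did not pass (median 0.13). The Dcakd call in WT was lost on dropping 1, 2 or 4 of the fasted WT arrays or any fed WT array (adjusted p up to 0.0881), and its rise was 0.23 as the mean of its probe sets. The Slc5a6 call was lost on dropping any of arrays 2, 3 and 4 of either fasted group, or fed WT 2 or 3 (up to 0.119), and that of Ppcs without fasted KO 1 (0.0544). The pantothenate kinase gene Pank1, the entry step of the pathway, had log2 differences of 0.36 in KO (adjusted p = 0.0509) and 0.26 in WT liver (0.184) by limma. These shares compare with 9.42% of all genes called in KO and 7.61% in WT fasting.

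Of 4 measured genes of coenzyme A breakdown, 1 was called on fasting in KO and in WT liver, Nudt7, where 9.42% and 7.61% of all genes were called. This peroxisomal coenzyme A diphosphatase averaged 10.01 ± 0.23 in fasted KO and 11.82 ± 0.26 in fed KO liver, and 9.84 ± 0.24 in fasted WT and 11.63 ± 0.10 in fed WT liver (SD, n = 4 each). Its log2 differences were -1.80 in KO (limma adjusted p = 1.17e-06) and -1.79 in WT liver (3.79e-06), opposite in sign to those of Vnn3. Nudt8, Nudt19 and the ectonucleotidase gene Enpp3 were not called in either genotype, at log2 differences of -0.34 to 0.21 in KO and -0.29 to 0.04 in WT liver. In KO liver Nudt19 (0.21, unadjusted p = 0.0398, limma adjusted p = 0.197) and Enpp3 (-0.34, 0.0381 and 0.191) were under 0.05 before adjustment.

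Among 8 genes of cysteamine, hypotaurine and taurine, 0 were called on fasting in KO liver by limma and 3 were called in WT liver. In KO liver 3 had an unadjusted p under 0.05, a limit at which the share of all genes was not counted for fasting. Over all genes 9.42% were called in KO and 7.61% in WT fasting. In WT, the aspartate aminotransferase gene Got1 rose 1.92-fold (adjusted p = 0.0258), the cysteine dioxygenase gene Cdo1 rose 1.26-fold (0.0346), and the taurine transporter gene Slc6a6 fell by 0.63 (adjusted p = 0.0296). Both rises lost their call without fasted WT 4 and fed KO 4, so that 0 of 8 were then higher. Single arrays whose absence ended a call were fasted WT 3 and 4 and fed WT 1 and 3 for Got1 (adjusted p up to 0.0931), fasted WT 2, 3 and 4 and fed WT 2, 3 and 4 for Cdo1 (up to 0.118), and fasted WT 3 and 4 and fed WT 1 and 4 for Slc6a6 (up to 0.0998). Ado, which oxidises cysteamine itself, had log2 differences of 0.17 in KO (limma adjusted p = 0.217) and 0.15 in WT liver (0.307). Of 11 measured glutathione genes, 2 rose and 2 fell in KO and 1 rose and 2 fell in WT liver, beside 4.53% higher and 4.89% lower of all genes in KO and 3.34% and 4.27% in WT liver. Oplah, the 5-oxoprolinase gene, rose 2.05-fold in KO (adjusted p = 1.44e-05) and 1.74-fold in WT liver (3.31e-04), while the glutathione-degrading Chac2 fell by 0.60 (adjusted p = 6e-04) in KO and by 0.52 (0.00287) in WT liver. The glutathione reductase gene Gsr rose 1.21-fold in KO liver (adjusted p = 0.0329), a call lost on dropping fasted KO 1, 3 or 4 or fed KO 1 or 4 (up to 0.111). Chac1, a relative of Chac2, fell by 0.66 in KO (0.0277) and by 0.66 in WT liver (0.0341). Its KO call was lost on dropping fasted KO 1 or 2 or fed KO 2 or 4 (up to 0.104), and its WT call on dropping fasted WT 1, 3 or 4 or fed WT 1 or 2 (up to 0.104).

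The wider family of carbon-nitrogen hydrolases, to which the vanins belong, was read in 7 genes. Besides the vanins, the biotinidase gene Btd rose 1.41-fold on fasting in KO liver (limma adjusted p = 0.0181) and had a log2 difference of 0.20 in WT liver (0.395). Nit2, the omega-amidase gene, fell by 0.74 in KO (adjusted p = 8.82e-05) and by 0.62 in WT liver (6.62e-04), and Upb1, the beta-ureidopropionase gene, fell by 0.28 in KO liver (0.0269) and had a log2 difference of -0.20 in WT liver (0.143). The call of Btd ended without fasted KO 2 or fed KO 3 or 4 (adjusted p up to 0.063), and that of Upb1 without fasted KO 1, 2 or 4 or fed KO 1, 2 or 3 (up to 0.0793). Nit1 and Nadsyn1 were not called on fasting in either genotype. Over all genes 9.42% were called in KO and 7.61% in WT fasting. The fasting response of none of the 7 was called as differing between the genotypes, and over all 18820 genes 0 were.

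**Figure D4:**
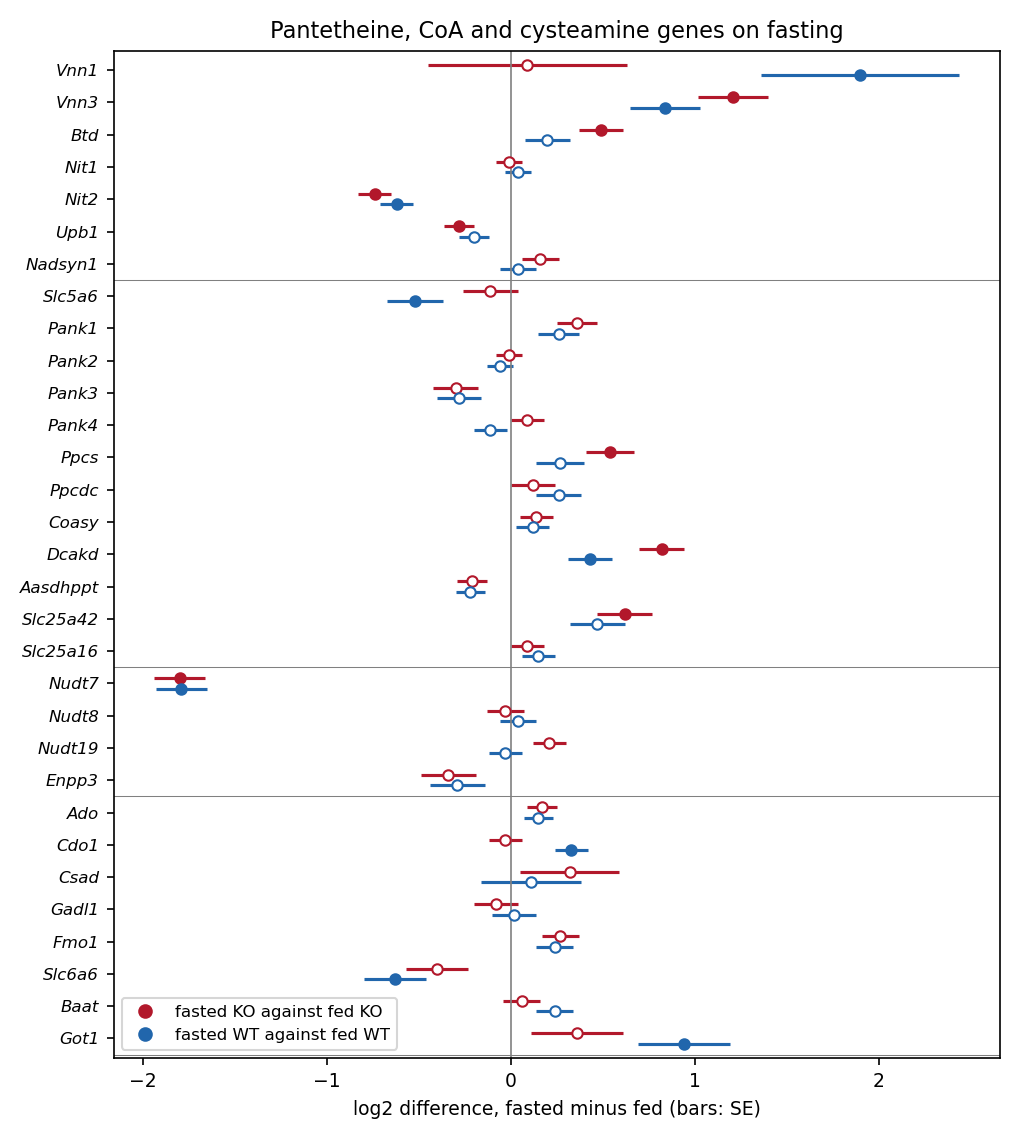
Log2 difference between fasted and fed liver, with SE bars, for genes of 4 lists separated by lines (amidase family, pantothenate and coenzyme A synthesis, coenzyme A breakdown, cysteamine and taurine), in KO (red) and WT (blue). Filled points have an adjusted p below 0.05. Farthest from 0 are Vnn1 in WT at 1.90, Nudt7 at -1.80 and -1.79, and Vnn3 in KO at 1.21. Vnn3 in WT stands at 0.84, nearer to 0 than Got1 in WT at 0.94.

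Between KO and WT liver, Vnn1 was the only called gene of these 4 lists and of the glutathione list in either feeding state. Over all genes 0.0159% were called in the fasted and 0.00531% in the fed state. In the fasted state 3 coenzyme A synthesis, 0 coenzyme A breakdown, 2 cysteamine and taurine and 1 glutathione gene had an unadjusted p under 0.05, where 5.49% of all genes did. In the fed state 0, 0, 0 and 1 had one, where 5.76% of all genes did. Ppcs, Dcakd and Slc25a42 had log2 differences of 0.46, 0.44 and 0.29 between fasted KO and fasted WT (limma adjusted p = 0.842, 0.822 and 0.894).

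The chromosomal neighbours were read to see whether the knockout allele touched genes beside Vnn1. Of the 10 nearest measured genes on each side of the pair, 0 of 20 were called by limma between KO and WT in either state. Over all genes only 0.0159% were called in the fasted and 0.00531% in the fed state, so 0 of 20 says little. At an unadjusted p under 0.05 stood 1 of the 20 in the fasted and 4 in the fed state. Over all genes 5.49% and 5.76% did so, and the fed share of the 20 was above this. The neighbours under that limit were Raet1e in both states and, in the fed state, Tcf21 (log2 difference -0.29), Slc2a12 (-0.17) and Taar7d (0.20), named after their values were seen. Raet1e, the farthest of the 10 on the Vnn3 side, read 6.63, 5.97, 6.56 and 6.47 on fasted KO arrays, against 7.96, 7.57, 7.59 and 7.06 on fasted WT arrays, with no overlap (log2 difference -1.13, limma adjusted p = 0.707). In the fed state it read 7.79, 7.22, 7.66 and 6.82 on KO arrays, against 9.03, 7.67, 7.68 and 8.02 on WT arrays, which overlapped (-0.73, adjusted p = 0.855). It had the largest difference among the 20 in either state. Slc18b1, the neighbour on the Vnn3 side, averaged 6.76 ± 0.07 in fasted KO and 6.46 ± 0.19 in fasted WT liver, and 6.45 ± 0.36 in fed KO and 6.56 ± 0.21 in fed WT liver (SD, n = 4 each). Taar1, a trace amine receptor gene and the neighbour on the Vnn1 side, lay at 2.77 to 3.12 on all 16 arrays, near the olfactory receptor level. All 10 genes on that side were Taar genes, with group means from 2.22 (Taar2, fed WT) to 4.80 (Taar7e, fasted WT). On the Vnn3 side H60b, Gm10825 and Slc2a12 had group means of 2.96 to 4.16. Genes this low can hardly show a loss, so the count of calls does not decide the question for them. Nor does the count decide it for the other neighbours, since so few of all genes were called. On fasting, Raet1e fell by 0.96 in KO liver (limma adjusted p = 0.0385). That call ended without any 1 of fasted KO 1 to 4 or fed KO 1 to 3 (adjusted p up to 0.118). Raet1e was not called in WT liver, and the other 19 were not called in either genotype. Over all genes 9.42% were called in KO and 7.61% in WT fasting.

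Cell markers were read beside these values. The mean of 10 of 12 hepatocyte markers lay at 13.02 to 13.15 on fasted KO, 13.10 to 13.22 on fasted WT, 13.09 to 13.15 on fed KO and 13.08 to 13.16 on fed WT arrays, so the tissue label held on all. In bulk liver, fewer cells of a type and less RNA per cell cannot be told apart. The pancreatic acinar mean (10 of 14 measured) was 8.38 on fasted WT 4 and 3.90 to 4.16 on the other 15 arrays. Without fasted WT 4 and fed KO 4 the log2 rise of Vnn3 was 1.11 in KO and 0.89 in WT liver, and both calls held. The neutrophil and myeloid mean (14 of 15) ran from 4.19 to 4.31 on fasted KO, 4.16 to 4.28 on fasted WT, 4.07 to 4.56 on fed KO and 4.09 to 4.25 on fed WT arrays. The Kupffer cell mean (12 of 12) ran from 7.98 to 8.70, 8.16 to 8.68, 8.40 to 8.67 and 8.52 to 9.17 in the same groups, and the cholangiocyte mean (7 of 10) from 4.78 to 5.12, 4.67 to 4.93, 4.73 to 4.93 and 4.64 to 4.85. The acute phase mean (13 of 14) reached 11.43 on fed KO 4, against 8.61 to 9.96 on the other 15 arrays. Of the Kupffer cell markers 1 fell on fasting in KO and 2 in WT liver. Of the acute phase transcripts 1 rose and 4 fell in KO and 1 fell in WT liver. In addition, 1 hepatocyte marker rose in WT and 1 neutrophil and myeloid marker rose in KO liver. Over all genes 4.53% rose and 4.89% fell in KO liver, and 3.34% rose and 4.27% fell in WT liver. The part of these markers in the Vnn1 and Vnn3 values was not tested.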

How the data were processed

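Liver RNA of 16 samples was hybridised to whole-transcript arrays after biotin labelling. The deposited values are log2 intensities that the authors made by RMA, per the submitters' processing notes; its version and the array's genome build are stated in none of the sources used here. Values ran from 1.26 to 14.19, with array medians of 5.19 to 5.29. Precision rests on the number of arrays.

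Of 35556 probe sets, a table of probe annotations named 23099, of which 21218 had 1 gene symbol and 1881 several; 12457 were not in it. Probe sets with 1 symbol were used (21185 matched RefSeq by Entrez ID), the one with the highest mean for each gene, which left 18820 genes, without a filter on dim genes. Groups came from the sample titles.

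Limma 3.58.1 in R 4.3.3 fitted a mean per group to all 16 arrays, two-sided, with p adjusted by Benjamini-Hochberg over all genes and called below 0.05. Single values were also compared by exact permutation of arrays. The fit was tested on simulated arrays. Named genes were Vnn1, Vnn3, members of the pathway lists, up to 3 called genes per list, direction and comparison, the nearest neighbours and the 5 genes most alike in pattern (9510 candidates, without predicted genes and olfactory receptors); the text prints a part of these. The members and lists were chosen with earlier results of these data known. Alternatives were other scalings, a filter on dim genes, other uses of probe sets, other variance priors, array weights, fewer groups, blocks for the title number and the array-name number, a threshold of 0.01, and leaving out arrays. Centring over every probe set was added after seeing the data.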

Additional observations from a re-analysis of the deposited data

Results flagged for a closer look

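In 64 combinations of a group and a gene or gene list, the highest or lowest of 4 arrays was compared with its nearest neighbour, and 3 stood apart by more than Dixon's limit, where chance alone sets apart about 1 in 20. None was a Vnn1 or Vnn3 value (0 of 8 groups). The pancreatic acinar mean of fasted WT 4 was 8.38, the neutrophil and myeloid mean of fed KO 4 was 4.56, and the acute phase mean of fed WT 2 was 9.96. Vnn1 and Vnn3 read 10.60 and 9.07 on fasted WT 4, 4.06 and 8.12 on fed KO 4, and 8.74 and 7.93 on fed WT 2.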

How the results depend on the processing

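Over up to 31 other settings the Vnn1 difference between fasted KO and fasted WT and the Vnn3 rise in KO liver kept direction and call in every one, as did the uncalled Vnn3 differences between fasted KO and fasted WT and over both feeding states, and both differences of the fasting responses. The Vnn1 rise in WT liver (1.90) was no longer called with every probe set tested (1.90, adjusted p = 0.0843), a robust prior (1.90, 0.0851), array weights (1.71, 0.0513), only the WT arrays (1.90, 0.158), on dropping the 3 arrays with a name ending in 2 (1.84, 0.113) and on dropping fasted WT 4 and fed KO 4 (1.97, 0.0814). With 1 array left out it ranged from 1.17 to 2.38. The fed Vnn1 difference was not called with only the fed arrays (-5.02, 0.163) or without the 3 arrays (-5.13, 0.0759), and ranged from -5.75 to -4.54 with 1 array left out. The Vnn3 rise in WT liver was not called with only the WT arrays (0.84, 0.0565). The uncalled fed Vnn3 difference (0.03) turned to -0.03 with array weights and when the 3 arrays were dropped, and ranged from -0.12 to 0.22 with 1 array left out. The uncalled Vnn1 difference on fasting in KO liver ranged from 0 to 0.19 and touched 0 without fasted KO 1. The causes were not tested, except that fewer arrays leave fewer degrees of freedom. The fit on the WT arrays alone also leaves out the narrow KO spread of Vnn1, and its SE for the WT rise was 0.68 instead of 0.54.

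Pairing of the arrays by title number was not seen: deviations from group means of same-numbered arrays correlated at -0.22 to 0.209, above 0.1 in 4 of 24 pairs. These correlations cannot exclude a shared factor. In every group the odd title numbers carried array-name number 5 and the even ones 7. With the title number as a replicate block the log2 differences of Vnn1 were -6.83 (fasted KO against fasted WT), -5.02 (fed KO against fed WT), 1.90 (WT fasting, adjusted p = 0.0335) and 0.09 (KO fasting), those of Vnn3 were 0.39, 0.03, 0.84 (adjusted p = 0.0106) and 1.21 (7.31e-04) in the same order, and no call on either gene changed.

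Genes called on fasting in WT liver were 629 higher and 803 lower, against 1014 and 542 with median centring, 336 and 493 with only the WT arrays, 392 and 488 without fasted WT 4, and 250 and 326 at a threshold of 0.01. In KO liver they were 852 and 920, against 448 and 516 on dropping the 3 arrays and 414 and 465 at 0.01. Between fasted KO and fasted WT 2 higher and 1 lower genes were called, with a range of 0 to 4 and 1 to 2, and between fed KO and fed WT 0 and 1, with a range of 0 to 2 and 0 to 4. PPARα target genes called higher ranged from 29 to 36 in KO and 21 to 33 in WT fasting. Of 100 calls on other genes, 65 held under every setting and 35 did not.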
